A study of Mus musculus with 8 samples.

Results

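Tubular injury markers are genes that kidney tubule cells switch on or raise when they are damaged or dedifferentiate during repair. Of the 55401 genes in the deposited table, 10 were taken by name: *Havcr1*, *Lcn2*, *Vcam1*, *Krt20*, *Spp1*, *Clu*, *Vim*, *Sox9*, *Cd44* and *Krt18*. Kidney RNA of 8 diabetic mice had been sequenced with 1 library per mouse, 4 from mice given rFGF4, a recombinant and non-mitogenic form of human FGF4, and 4 from mice given PBS vehicle. The labels name the model as db/db, mice with type 2 diabetes that lack a working leptin receptor in the whole body, on the C57BLKS/J background per the methods. The study's text instead names streptozotocin-induced diabetes for the sequenced mice, a conflict that the table itself cannot resolve. The regimen described for db/db males began at an age of 12 weeks and lasted 8 weeks, with rFGF4 (1 mg/kg) or vehicle injected into the peritoneum on alternate days. Both groups were therefore diabetic, and no kidney without diabetes was analysed here. By the labels, the treated mice carry the numbers 1, 2, 3 and 5, and those given vehicle the numbers 2, 3, 4 and 5.

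A healthy proximal tubule cell reabsorbs solutes and protein from the filtrate. When it is injured, it flattens, loses its transporters and expresses a set of genes, some of which are nearly silent in the intact tubule. KIM-1, the product of *Havcr1*, appears on its luminal membrane and takes up dead cells, and SOX9 marks cells that re-enter a progenitor-like state. Lipocalin 2, osteopontin and clusterin (*Lcn2*, *Spp1*, *Clu*) are secreted into urine and tissue, keratins 18 and 20 rebuild the cytoskeleton, and VCAM-1, CD44 and vimentin mark cells that persist in a proinflammatory, incompletely repaired state. Some of these genes are also active elsewhere: vimentin in mesenchymal and immune cells, CD44 in leukocytes, VCAM-1 in activated endothelium, lipocalin 2 in neutrophils and keratin 20 in urothelium.

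The unit of all levels is FPKM, in which fragment numbers are divided by transcript length and by library size. The table holds no read counts, so the depth behind a value is unknown. The summed FPKM of a library lay between 389407 in rFGF4 mouse 1 and 552604 in vehicle mouse 2. All 8 libraries expressed kidney genes at high levels, with 654 to 1213 FPKM of *Umod* (uromodulin, a thick limb protein). Relative to the median gene, rFGF4 mouse 1 had the highest scaling factor, 1.3, against 0.907 to 1.11 in the other mice. Vehicle mouse 5 stood apart in the light chain gene *Igkc*, with 22335 FPKM against 22.4 to 2640 in the other 7 mice. The differences were tested for the 15150 genes with at least 0.5 FPKM in 4 or more libraries, on the scale log2(FPKM + 1), and all 10 markers were among them. Beyond model, tissue, treatment and number, the labels do not describe the single mice, so p-values measure the spread between these libraries.

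The groups did not separate in any of the 10 markers. With limma, 0 of 10 markers had an unadjusted p under 0.05, beside 4.62% of all genes tested. The study's threshold adds a fold change of at least 1.5, and 0 of 10 markers met it, beside 1.52% of all genes (1.09% higher and 0.436% lower with rFGF4). By that rule 165 genes were higher and 66 lower, or 93 and 81 after scaling. A fold change of at least 1.5 upward, without regard to p, was seen for 7 markers, beside 3.44% of all genes, but without rFGF4 mouse 1 only for *Havcr1* and *Krt20*, and without vehicle mouse 2 for 4 markers. Before scaling, the mean log2 level was higher in the rFGF4 group for 10 of 10 markers, beside 67.1% of all genes tested. After scaling by the median ratio over genes, it was again higher for 10 of 10 markers. Also before scaling, it was higher for 7 of 10 without rFGF4 mouse 1. In the fit over mice 2, 3 and 5 of both groups it was higher for 4 of 10. The median log2 fold change of the markers was 0.78 (0.67 after scaling), and the median over all genes was 0.09 (-0.01 after scaling). All 4 mice of one group lay above all 4 of the other for 0 markers, beside 3.33% of all genes. The plot of levels by mouse shows wide ranges within both groups. In RNA of kidney tissue, fewer cells of a type and less RNA per cell cannot be told apart.

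**Figure D1:**
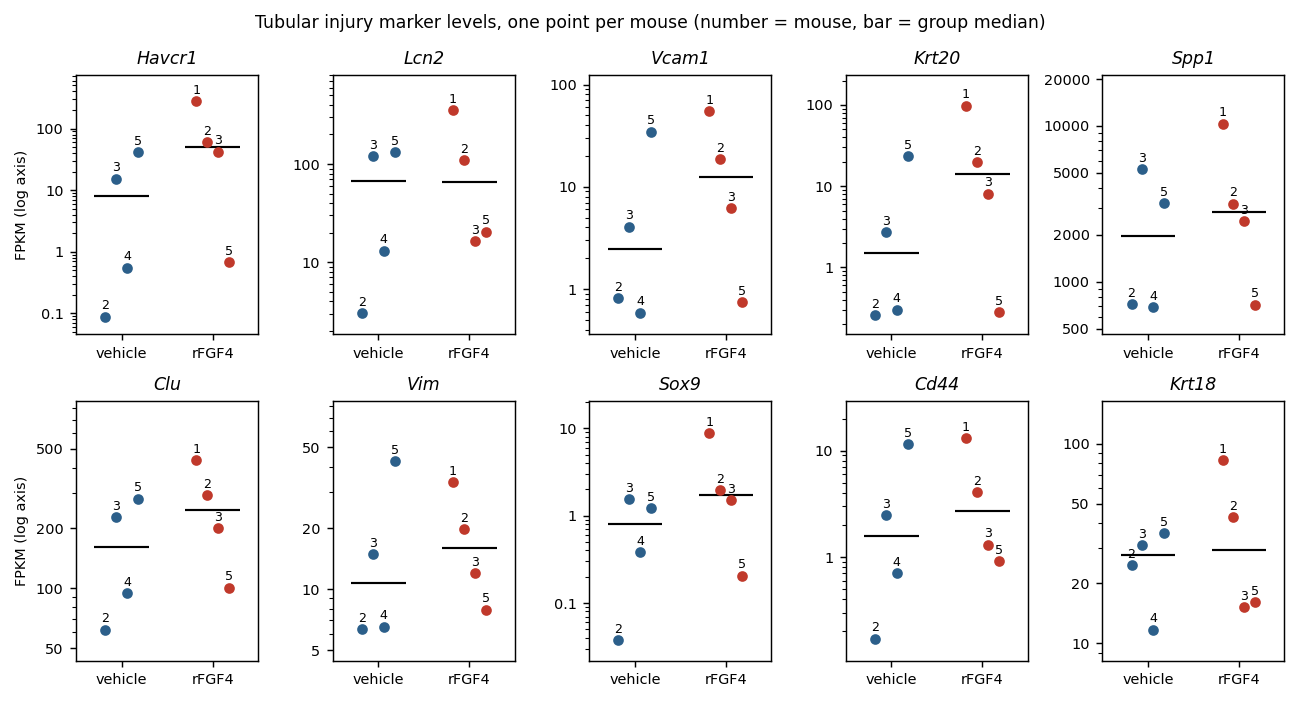
FPKM of the 10 tubular injury markers (log axes) in each mouse, with blue points for the 4 vehicle-treated and red points for the 4 rFGF4-treated mice, the mouse number above each point and a bar at the group median. In every panel the groups overlap, and rFGF4 mouse 1 is the highest of all 8 mice except for *Vim*, where vehicle mouse 5 is.

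The widest differences were those of *Havcr1*, the KIM-1 gene (ENSMUSG00000040405; GRCm38 chromosome 11, 46735080 to 46779578, plus strand). The rFGF4-treated mice had 280 (mouse 1), 59.8 (mouse 2), 42.2 (mouse 3) and 0.675 FPKM (mouse 5). The vehicle-treated mice had 0.0888 (mouse 2), 15.4 (mouse 3), 0.555 (mouse 4) and 41.7 FPKM (mouse 5). *Havcr1* was thus close to absent in 3 mice, 1 of them treated with rFGF4, and abundant in the other 5. The highest mouse exceeded the lowest 414-fold within the rFGF4 group and 470-fold within the vehicle group. The log2 fold change between the groups was 2.51 (standard error 1.72; 95% interval -1.43 to 6.45; limma adjusted p = 0.919), within the spread of the mice (exact permutation, two-sided, p = 0.171, where the smallest possible p is 0.0286). Without rFGF4 mouse 5, the only treated mouse with a low level, it was 3.94 with an unadjusted limma p of 0.0247, and the lowest rFGF4-treated mouse then lay just above the highest vehicle-treated mouse. Groups of 3 and 4 mice overlap less often, and 11% of all genes did not overlap in that comparison. Without rFGF4 mouse 1, the highest, it was 1.48 with an unadjusted limma p of 0.416, and without vehicle mouse 2, the lowest, it was 1.70.

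*Krt20*, a keratin of intestinal and urothelial lining that injured tubules also express (ENSMUSG00000035775; chromosome 11, 99428403 to 99438150, minus strand), followed the same order closely. It had 97.9, 19.9, 8.10 and 0.281 FPKM in rFGF4 mice 1, 2, 3 and 5. In vehicle mice 2, 3, 4 and 5 it had 0.261, 2.70, 0.301 and 23.5 FPKM. The 3 mice with little *Havcr1* were again the 3 with the least *Krt20*. Between the groups, the log2 fold change was 1.83 (standard error 1.40; limma adjusted p = 0.920; exact permutation p = 0.343), and 2.93 with an unadjusted limma p of 0.0456 without rFGF4 mouse 5. Without rFGF4 mouse 1 it was 0.84 with an unadjusted limma p of 0.538.

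*Sox9*, the transcription factor of tubular repair (ENSMUSG00000000567; chromosome 11, 112782224 to 112787760, plus strand), was the marker of lowest level, with at least 0.5 FPKM in 5 of 8 libraries. It had 8.77, 1.98, 1.5 and 0.206 FPKM in rFGF4 mice 1, 2, 3 and 5. Levels with vehicle, in mice 2, 3, 4 and 5, were 0.0372, 1.54, 0.380 and 1.22 FPKM. Only rFGF4 mouse 1 exceeded 2 FPKM, and rFGF4 mice 2, 3 and 5 lay close to or within the vehicle range. The log2 fold change was 0.86 (standard error 0.60; limma adjusted p = 0.919; exact permutation p = 0.257), and 1.31 with an unadjusted limma p of 0.0423 without rFGF4 mouse 5. Leaving out rFGF4 mouse 1 instead gave 0.30 with an unadjusted limma p of 0.491.

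*Krt18*, the keratin of simple epithelia that pairs with keratin 8 (ENSMUSG00000023043; chromosome 15, 102028180 to 102032027, plus strand), was present in all mice and had the smallest SD of the 10 on the log2 scale. It had 82.5, 42.8, 15.3 and 16.1 FPKM in rFGF4 mice 1, 2, 3 and 5. In vehicle mice 2, 3, 4 and 5 it had 24.6, 30.9, 11.7 and 35.6 FPKM. Here rFGF4 mice 3 and 5 lay below 3 of the 4 vehicle-treated mice. Between the groups, the log2 fold change was 0.35 (standard error 0.57; exact permutation p = 0.629), and it was -0.11 without rFGF4 mouse 1.

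Among the secreted markers, *Spp1*, the gene of osteopontin (ENSMUSG00000029304; chromosome 5, 104435118 to 104441050, plus strand), was by far the most abundant of the 10. It had 10365, 3175, 2445 and 715 FPKM in rFGF4 mice 1, 2, 3 and 5. Levels with vehicle, in mice 2, 3, 4 and 5, were 720, 5291, 686 and 3212 FPKM. The lowest of these levels was above the highest level of any other marker, and the transcript made up between 0.127% (vehicle mouse 4) and 2.66% (rFGF4 mouse 1) of all FPKM of a library. Its exons overlap *Gm42793* on the same strand, so that reads of the pair may not be separable. The log2 fold change was 0.69 (standard error 0.94; exact permutation p = 0.600), and 0.06 without rFGF4 mouse 1.

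*Clu*, which encodes the extracellular chaperone clusterin (ENSMUSG00000022037; chromosome 14, 65968483 to 65981547, plus strand), was expressed in every mouse and differed less. It had 439, 292, 201 and 101 FPKM in rFGF4 mice 1, 2, 3 and 5. In vehicle mice 2, 3, 4 and 5 it had 61.9, 228, 94.0 and 282 FPKM. The order of the mice was nonetheless that of *Havcr1* in its upper and lower ranks, with rFGF4 mice 1 and 2 at the top and vehicle mice 2 and 4 at the bottom. Between the groups, the log2 fold change was 0.69 (standard error 0.59; 95% interval -0.66 to 2.04; exact permutation p = 0.343), and it was 0.37 without rFGF4 mouse 1 and 0.31 without vehicle mouse 2.

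*Lcn2*, the gene of the iron-siderophore carrier lipocalin 2 or NGAL (ENSMUSG00000026822; chromosome 2, 32384633 to 32388252, minus strand), had group medians that were almost alike, 65.0 FPKM with rFGF4 and 66.5 with vehicle. It had 356, 109, 16.6 and 20.5 FPKM in rFGF4 mice 1, 2, 3 and 5. Levels with vehicle, in mice 2, 3, 4 and 5, were 3.04, 120, 13.2 and 131 FPKM. It departed from *Havcr1* in rFGF4 mouse 3, where it was low, and in vehicle mouse 3, where it was the third highest of all mice. The log2 fold change of 1.01 (standard error 1.37; exact permutation p = 0.543) was 0.17 without rFGF4 mouse 1 and 0.03 without vehicle mouse 2.

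Of the adhesion genes and *Vim*, *Vcam1*, the ligand of integrin alpha 4 on leukocytes (ENSMUSG00000027962; chromosome 3, 116109949 to 116129688, minus strand), ranged most widely. It had 55.4, 18.7, 6.21 and 0.743 FPKM in rFGF4 mice 1, 2, 3 and 5. In vehicle mice 2, 3, 4 and 5 it had 0.817, 4.07, 0.587 and 34.6 FPKM. The same 3 mice as for *Havcr1* and *Krt20* were below 1 FPKM. Its exons overlap *Gm43109* on the opposite strand, and since the counting is not stated to use strand, reads of the pair may not be separable. The log2 fold change was 1.19 (standard error 1.27; exact permutation p = 0.457), and 0.39 without rFGF4 mouse 1.

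*Cd44*, a receptor of hyaluronan and osteopontin (ENSMUSG00000005087; chromosome 2, 102811141 to 102901665, minus strand), had 13.1, 4.07, 1.31 and 0.907 FPKM in rFGF4 mice 1, 2, 3 and 5. Levels with vehicle, in mice 2, 3, 4 and 5, were 0.171, 2.47, 0.703 and 11.5 FPKM. *Vim*, the intermediate filament gene of mesenchymal cells (ENSMUSG00000026728; chromosome 2, 13573927 to 13582826, plus strand), had 33.6, 19.8, 11.95 and 7.91 FPKM in rFGF4 mice 1, 2, 3 and 5. In vehicle mice 2, 3, 4 and 5 *Vim* had 6.33, 14.8, 6.52 and 42.9 FPKM. Each of these genes was high in 1 mouse per group, rFGF4 mouse 1 and vehicle mouse 5. Their log2 fold changes were 0.47 for *Cd44* (standard error 0.86; exact permutation p = 0.629) and 0.28 for *Vim* (standard error 0.64; exact permutation p = 0.771). Without rFGF4 mouse 1 both turned negative, to -0.12 for *Cd44* and -0.06 for *Vim*, and *Vim* was also negative without vehicle mouse 2 (-0.03) or vehicle mouse 4 (-0.02).

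**Figure D2:**
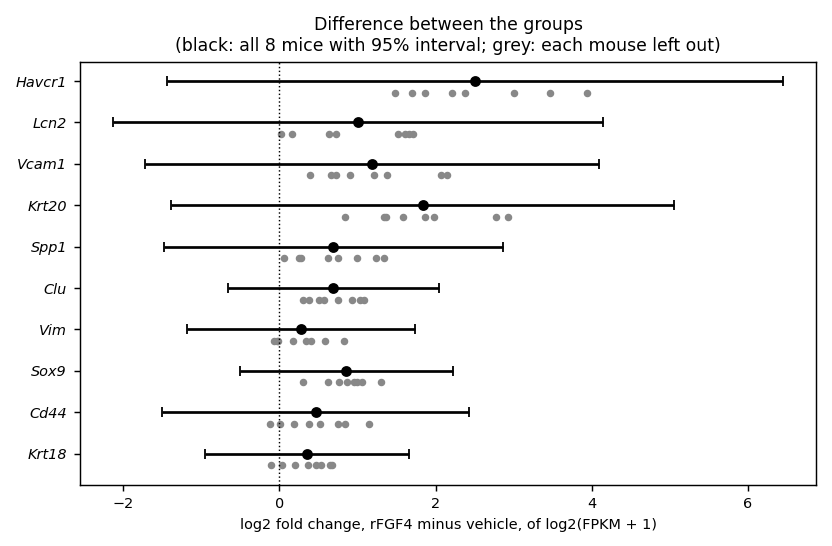
Log2 fold change of each marker (rFGF4 minus vehicle, on log2(FPKM + 1)) with its 95% interval from limma in black, and the estimates with each mouse left out in grey. Every interval includes 0, from -1.43 to 6.45 for *Havcr1* to -1.18 to 1.74 for *Vim*, and the grey points of *Vim*, *Cd44* and *Krt18* lie on both sides of 0.

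The 3 markers whose estimate passed an unadjusted p of 0.05 without rFGF4 mouse 5 were *Havcr1*, *Krt20* and *Sox9*, all also past the fold change, beside 3.8% of all genes that did so in that fit. With limma's array weights, which give less weight to libraries that stand apart, *Havcr1* and *Krt20* did (unadjusted p of 0.0349 and 0.0453), beside 3.23% of all genes. Their adjusted p in these fits were between 0.400 and 0.529.

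Measured against other genes, the markers varied widely from mouse to mouse. The SD of log2(FPKM + 1) over the 8 mice had a median of 1.40 over the 10 markers and of 0.28 over all genes tested. *Havcr1* (SD 2.96) ranked 7 of 15150 genes, *Krt20* (2.37) ranked 45, *Lcn2* (2.17) ranked 72 and *Vcam1* (2.05) ranked 93. The lowest ranks were those of *Clu* (685) and *Krt18* (847), so that 9 of the 10 markers were among the 5% of genes with the largest spread. After scaling to a common median ratio, 7 were. Within groups the spread was of the same size. The SD of *Havcr1* was 3.11 over the 4 rFGF4-treated and 2.58 over the 4 vehicle-treated mice, and that of *Vim* was 0.85 and 1.21.

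**Figure D3:**
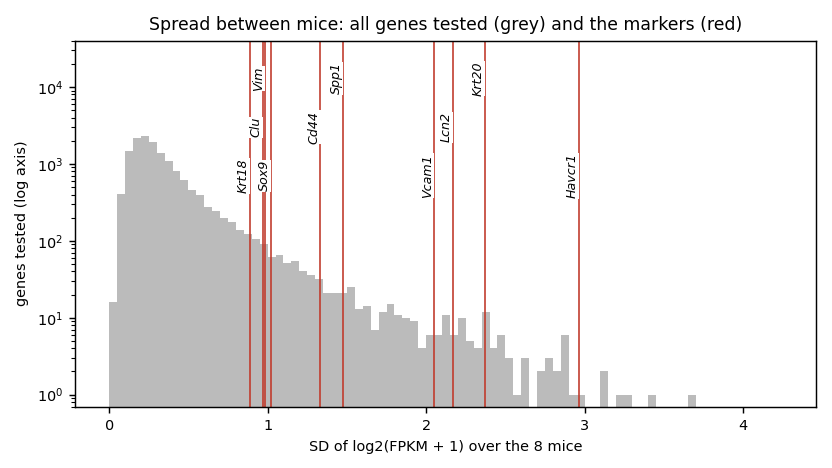
Number of genes tested (log axis) by the SD of log2(FPKM + 1) over the 8 mice, in grey, with red lines at the 10 markers. The markers lie in the upper tail, from 0.89 for *Krt18* to 2.96 for *Havcr1*, where the median of all genes is 0.28.

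The 10 markers ordered the mice in nearly the same way. Of the 8 mice, rFGF4 mouse 1 was the highest for 9 markers and second for *Vim*. Vehicle mouse 2 was the lowest for 7 markers and vehicle mouse 4 for the other 3. The 3 lowest values included vehicle mouse 4 for 10 markers, vehicle mouse 2 for 9 and rFGF4 mouse 5 for 9. Vehicle mice 3 and 5 and rFGF4 mice 1 and 2 were never among the 3 lowest. Both groups thus had mice among the higher and among the lower levels, although the lowest was a vehicle-treated mouse for all 10 markers. The mean rank (1 for the highest) was 1.1, 2.8, 4.8 and 6.3 in rFGF4 mice 1, 2, 3 and 5, and 7.3, 3.9, 7.1 and 2.7 in vehicle mice 2, 3, 4 and 5. The share of FPKM from mitochondrial genes ran in the opposite order, with only rFGF4 mouse 3 and vehicle mouse 3 exchanged. It was 19.0%, 24.7%, 29.8% and 36.0% in rFGF4 mice 1, 2, 3 and 5. In vehicle mice 2, 3, 4 and 5 it was 38.4%, 34.2%, 37.2% and 24.4%. Its part in the order was not tested.

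Over the 45 pairs of markers, Pearson's r across the 8 mice had a median of 0.879 and a range of 0.747 to 0.985, and Spearman's rho a median of 0.833 and a range of 0.667 to 0.976. These values describe genes measured in the same libraries and are not replicates of each other. With the group means removed, the median r was again 0.879 (range 0.740 to 0.991). Without rFGF4 mouse 1 and vehicle mouse 2, the mice farthest from the median, it was 0.83 (0.554 to 0.988). *Vcam1* and *Clu* were the most similar to the mean z score of the other 9 markers (r = 0.965 for each), and *Krt18* the least (r = 0.835). A high r was common in this table: of 13189 other genes with a mean of at least 1 FPKM, 12.6% had an r over 0.9 with the mean z score of the markers, and the median r was 0.58. After scaling to a common median ratio, a step added after seeing the data, that share was 4.51% and the median r of other genes 0.00, while the pairs of markers kept a median r of 0.851. Before scaling, rFGF4 mouse 1 was also the highest mouse for 48.1% of all genes tested. After scaling it was so for 20.2% of all genes and for 8 of the 10 markers.

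By the rule of highest r with the mean z score of the markers over the 8 mice, the genes most alike were *Ctnnbl1*, *Bmyc*, *Timp1*, *Klhl18* and *Arpc1b*, with r between 0.993 and 0.997. *Timp1*, the tissue inhibitor of metalloproteinases, had 69.4, 18.8, 7.83 and 1.22 FPKM in rFGF4 mice 1, 2, 3 and 5. Levels with vehicle, in mice 2, 3, 4 and 5, were 0.491, 7.98, 0.723 and 19.8 FPKM, an order of mice identical to that of the markers' score (Spearman's rho of 1). *Arpc1b*, a subunit of the actin-nucleating Arp2/3 complex, ranged from 5.29 FPKM in vehicle mouse 2 to 34.7 in rFGF4 mouse 1. *Ctnnbl1* moved with the markers over a narrow range, from 6.57 to 10.0 FPKM.

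Because the markers moved together, their promoters were compared for common sequence motifs. The RefSeq promoter table (GRCm38.p6) held 7 of the 10 genes in 10 windows, taken here as the 250 bases before each transcript start. *Clu*, *Sox9* and *Vcam1* had no entry. Windows are shown 5′ to 3′ for *Havcr1* (chr11:46739973-46740222, + strand) and *Krt20* (chr11:99438154-99438403, - strand), the markers with the widest range, and for *Spp1* (chr5:104434861-104435110, + strand), the most abundant. Capitals mark a TATA box (TATAAA) or a CCAAT box (CCAAT) on either strand.
Havcr1: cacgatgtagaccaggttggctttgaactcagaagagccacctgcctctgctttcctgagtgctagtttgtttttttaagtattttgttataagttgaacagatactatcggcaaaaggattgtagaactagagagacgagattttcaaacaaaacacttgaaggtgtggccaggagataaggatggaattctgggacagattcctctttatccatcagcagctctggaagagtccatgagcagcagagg
Krt20: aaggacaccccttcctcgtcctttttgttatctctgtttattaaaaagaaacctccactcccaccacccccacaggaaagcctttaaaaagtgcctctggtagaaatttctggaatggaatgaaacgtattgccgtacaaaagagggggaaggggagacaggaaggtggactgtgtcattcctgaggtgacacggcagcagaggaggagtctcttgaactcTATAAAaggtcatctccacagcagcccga
Spp1: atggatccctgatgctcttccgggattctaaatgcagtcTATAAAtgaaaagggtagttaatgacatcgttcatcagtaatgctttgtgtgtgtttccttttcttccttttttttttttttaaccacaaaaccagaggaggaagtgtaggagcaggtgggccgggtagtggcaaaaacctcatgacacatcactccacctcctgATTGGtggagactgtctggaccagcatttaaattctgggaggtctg
In *Krt20* the TATA box begins 29 bases before the start, in *Spp1* one begins 211 bases before it and a reverse CCAAT box 46 bases before it. *Havcr1* held no match in this window or in its other windows. The TATA box letters were in 3 of the 10 windows (1 each of *Krt20*, *Spp1* and *Vim*), beside 12.4% of 32851 mouse promoter windows of the same length, and CCAAT in 2 of the 10 (*Spp1* and *Vim*), beside 33.8%. The AP-1 letters TGANTCA (6.75% of all windows) and the STAT letters TTCNNNGAA (7.02%) were in 0 of the 10 windows. The NF-kB consensus (7.25%) was in 2 of the 10 (*Krt18* and *Vim*), where none of its matches overlapped another motif. A match of letters is a description of the window and not of a bound site.

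The wider injury response was taken from a list of 34 other genes, all of which were tested. Of these, 1 met the study's threshold as higher in rFGF4-treated mice, beside 1.09% of all genes, and 0 as lower, beside 0.436%. The median log2 fold change of the list was 0.60 (0.50 after scaling). The gene at the threshold was *Prom1*, which encodes the progenitor cell surface protein prominin 1. It had 25.98, 16.5, 13.7 and 8.57 FPKM in rFGF4 mice 1, 2, 3 and 5, and 9.496, 3.96, 3.79 and 7.53 FPKM in vehicle mice 2, 3, 4 and 5. The groups overlapped by rFGF4 mouse 5 and vehicle mouse 2, and the log2 fold change was 1.24 (standard error 0.37; unadjusted limma p = 0.00925; adjusted p = 0.918; exact permutation p = 0.0571). *Prom1* tracked the markers only loosely, with r = 0.576 over the 8 mice. In contrast, 29 of the 34 genes had an r over 0.7 with the markers' mean z score, beside 40.5% of other genes, and after scaling 28 did, beside 17.9%. *Timp1*, *S100a11* (r = 0.982), *Tnfrsf12a* (0.976) and *C3* (0.971) were among the closest, named after their values were seen. The complement gene *C3* had 670, 244, 142 and 39.2 FPKM in rFGF4 mice 1, 2, 3 and 5, and 14.1, 170, 39.6 and 278 FPKM in vehicle mice 2, 3, 4 and 5.

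Of 15 partners and ligands of the markers, 11 were tested and 0 met the threshold. The enzymes that degrade hyaluronan, the ligand of CD44, came nearest: *Hyal1* had 4.44 ± 1.12 FPKM (SD, n = 4) with rFGF4 and 2.88 ± 0.165 (SD, n = 4) with vehicle. Its log2 fold change was 0.46 (standard error 0.17; unadjusted limma p = 0.0246; exact permutation p = 0.0857), below the fold change required, and its groups overlapped. *Hyal2* was the 1 gene of the 11 tested whose groups did not overlap, beside 3.33% of all genes. Its log2 fold change was 0.39 (standard error 0.15; limma adjusted p = 0.918). Its exact permutation p of 0.0286, the smallest possible, is that of every gene without overlap. The hyaluronan synthase genes *Has1* and *Has2* stayed below 0.5 FPKM in all mice. *Krt8*, which forms filaments with keratin 18, followed *Krt18* from 58.7 FPKM in vehicle mouse 4 to 179 in rFGF4 mouse 1. *Lrp2*, which encodes megalin, the receptor that recovers lipocalin 2 and clusterin from the filtrate, ran the other way. It was lowest in rFGF4 mouse 1 (25.8 FPKM) and highest in rFGF4 mouse 3 (82.6 FPKM), with r = -0.794 with the markers over the 8 mice.

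The whole list of 12 proximal tubule genes ran against the markers, and 0 of the 12 met the threshold between the groups. Their summed FPKM was 1706, 4469, 8189 and 8283 in rFGF4 mice 1, 2, 3 and 5, and 10136, 4981, 9110 and 5002 in vehicle mice 2, 3, 4 and 5. The mouse with the highest injury markers thus had the lowest sum and the mouse with the lowest markers the highest. The phosphate transporter gene *Slc34a1* had 136 FPKM in rFGF4 mouse 1 and between 483 and 824 in the other 7 mice. Over the 8 mice, 12 of 12 genes had a negative r with the markers (median -0.835), also after scaling (median -0.854). An r under -0.7 was found for 11 of them, beside 7.55% of other genes, and for 12 after scaling, beside 18.8%. The r was also negative for 6 of 6 collecting duct and 4 of 5 thick ascending limb genes, and for 6 of 8 endothelial genes (8 of 8 after scaling). Without rFGF4 mouse 1 and vehicle mouse 2, these counts were 2 of 6, 3 of 5 and 3 of 8. The r of the proximal tubule genes was then still negative for 12 of 12. The smallest p of the list was that of the water channel gene *Aqp1* (log2 fold change -0.52, standard error 0.40, unadjusted limma p = 0.234; exact permutation p = 0.314).

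**Figure D4:**
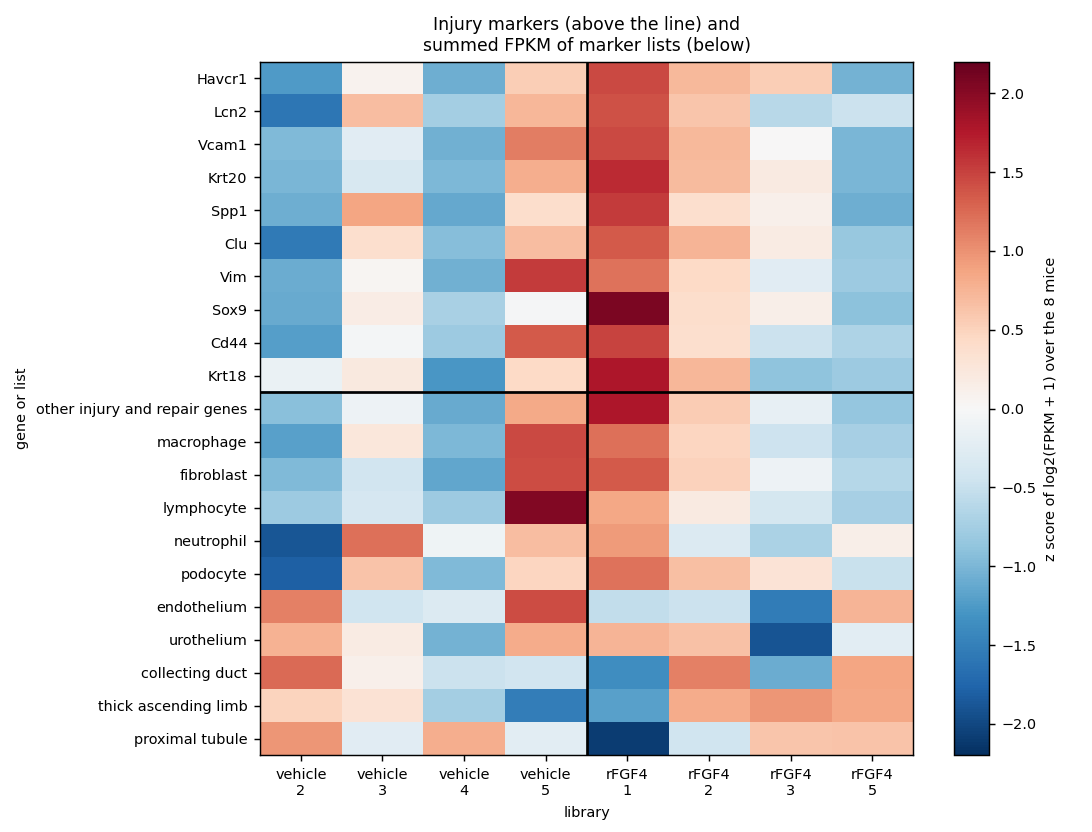
Z scores over the 8 mice of log2(FPKM + 1) for the 10 markers (above the line) and for the summed FPKM of marker lists (below), with vehicle-treated mice on the left and rFGF4-treated mice on the right. In rFGF4 mouse 1 all 10 markers are red, and in vehicle mouse 5 all but *Sox9*, which is near 0. Macrophages and fibroblasts are red in both mice too, and rFGF4 mouse 1 is deep blue for the proximal tubule.

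Macrophage and fibroblast genes had high levels in the same mice as the injury markers, in a table where 12.6% of other genes had an r over 0.9 and 40.5% an r over 0.7 with the markers. The 10 macrophage genes summed to 1340, 485, 135 and 92.9 FPKM in rFGF4 mice 1, 2, 3 and 5, and to 49.3, 357, 64.9 and 1854 FPKM in vehicle mice 2, 3, 4 and 5. Their r with the markers' mean z score over the 8 mice lay between 0.918 and 0.972, and 0 of 10 met the threshold. The 8 fibroblast genes summed to between 13.9 (vehicle mouse 4) and 143 FPKM (vehicle mouse 5), with 131 in rFGF4 mouse 1, and 0 of the 7 tested met the threshold. An r over 0.7 was found for 7 of these 7 genes (5 after scaling), for 4 of 6 podocyte genes (2 after scaling) and for 2 of 4 lymphocyte and 2 of 4 neutrophil genes. Without rFGF4 mouse 1 and vehicle mouse 2, 0 of the 4 neutrophil genes had one. *Vim* and *Cd44*, which these cells also express, were likewise highest in rFGF4 mouse 1 and vehicle mouse 5. The 9 lymphocyte genes summed to 1051 FPKM in vehicle mouse 5, 116 in rFGF4 mouse 1 and 4.51 to 34.1 in the others. The part of these cells in the levels of *Vim*, *Cd44*, *Vcam1* and *Spp1* was not tested.

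Neutrophil, urothelial and endothelial genes are given beside the markers that these cells also express. The neutrophil genes summed to 391 FPKM in vehicle mouse 3, 259 in rFGF4 mouse 1, 40.8 in rFGF4 mouse 2 and 3.07 in vehicle mouse 2, and the defining gene *Ly6g* stayed at or below 0.604 FPKM. The mice with the 3 highest sums, vehicle mouse 3, rFGF4 mouse 1 and vehicle mouse 5 (178 FPKM), were also the 3 with the most *Lcn2*. The next in *Lcn2*, rFGF4 mouse 2 (109 FPKM), had a low sum. The urothelial genes summed to 58.1, 50.8, 1.81 and 18.05 FPKM in rFGF4 mice 1, 2, 3 and 5, and to 59.5, 29.6, 6.61 and 63.1 FPKM in vehicle mice 2, 3, 4 and 5. The sum was thus almost the same in the mouse with the most *Krt20* and in the mouse with the least. Its members were mixed. *Upk1a* and *Upk2*, genes of the uroplakin plaque, were highest in vehicle mouse 2 (12.9 and 6.89 FPKM) and had 1.10 and 0.402 FPKM in rFGF4 mouse 1. The basal keratin gene *Krt5* instead had 38.4 FPKM in rFGF4 mouse 1, 42.2 in rFGF4 mouse 2 and 44.8 in vehicle mouse 5, against 2.08 in vehicle mouse 2, with r = 0.646 with the markers. Without rFGF4 mouse 1 and vehicle mouse 2, Spearman's rho of the urothelial sum with the markers' score was 0.83 over the other 6 mice. The 8 endothelial genes summed to between 59.2 and 113 FPKM in all mice, whereas *Vcam1* ranged over 94.4-fold. The part of these cells in the levels of *Lcn2*, *Krt20* and *Vcam1* was not tested.

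**Figure D5:**
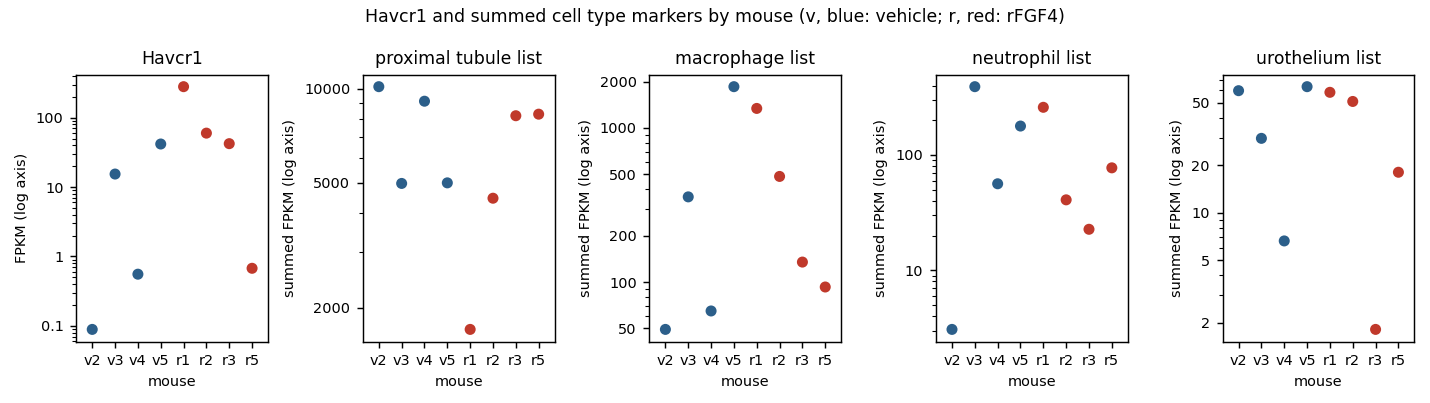
FPKM of *Havcr1* and summed FPKM of the proximal tubule, macrophage, neutrophil and urothelium lists (log axes) in each mouse, vehicle in blue (v2 to v5) and rFGF4 in red (r1 to r5). *Havcr1* is highest in r1 (280 FPKM), where the proximal tubule sum is lowest (1706 FPKM), and lowest in v2, where that sum is highest (10136 FPKM).

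Among the remaining lists, the 5 thick ascending limb, 6 collecting duct, 8 endothelial and 6 tested urothelial genes held 0 genes at the threshold, and so did the 4 tested neutrophil and 4 tested lymphocyte genes. The smallest unadjusted limma p were 0.102 for *Umod*, 0.0898 for the sodium channel subunit gene *Scnn1g*, 0.0424 for the angiopoietin receptor gene *Tek* (log2 fold change -0.38) and 0.178 for *Upk1a*. They were 0.611 for the neutrophil granule gene *Ngp*, 0.420 for the B cell receptor gene *Cd79b*, 0.499 for the macrophage gene *Mrc1* and 0.161 for the fibroblast and pericyte gene *Pdgfrb*. The 6 podocyte genes held 1 at the threshold, beside 1.52% of all genes. This was the actin-associated *Synpo*. It had 3.93 ± 1.79 FPKM (SD, n = 4) with rFGF4 and 1.58 ± 0.475 (SD, n = 4) with vehicle, a log2 fold change of 0.87 (standard error 0.30; unadjusted limma p = 0.0195; limma adjusted p = 0.918; exact permutation p = 0.0571). Its r with the injury markers over the 8 mice was 0.328, and the groups overlapped.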

How the data were processed

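Kidney RNA of 8 mice was sequenced in paired ends with 1 library each. The labels give kidney as the tissue, and the methods name the renal cortex for the RNA used in PCR and no region for sequencing. The submitters' notes name HISAT2 2.0, Bowtie 0.12.2, StringTie 1.3.0 and the build mm8 without their roles. Transcripts were built by the authors in StringTie and combined over samples in gffcompare, and StringTie gave the deposited FPKM per gene, of which 57.5% are listed at 0.0001. The deposited table also holds the authors' own comparison (fold changes, p-values and q-values), which was not used. No counts were given, so log2(FPKM + 1) was compared in limma 3.58.1 (R 4.3.3), using an intensity trend for the prior variance. P-values were adjusted by Benjamini and Hochberg's method over the 15150 genes with at least 0.5 FPKM in 4 or more libraries. Single genes were compared by two-sided exact permutation over the 70 assignments of 4 against 4 mice. Libraries were grouped by the titles given to the samples. The threshold was that of the study, p below 0.05 without adjustment together with a 1.5-fold rise or a ratio of 0.67 or less. Of the identifiers, 99.5% were in GENCODE M21 on GRCm38, from which positions were taken. The table has Ensembl identifiers and no coordinates, and the notes name another build.

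The markers and gene lists were chosen with earlier results of these data known. Named were all 10 markers, up to 5 genes of each list at the threshold or else the gene with the smallest p, and the 5 genes most alike in pattern. Other genes were chosen after their values were seen. The procedure was tested on simulated data. The alternatives were another pseudocount, no filter, scaling, array weights, other fold limits, each mouse left out and a block for shared mouse numbers.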

Additional observations from a re-analysis of the deposited data

Results flagged for a closer look

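Dixon's test for a sample far from its group was applied to 67 results in both treatment groups, 134 tests in all, and 5 passed its critical value. About 1 in 20 does so by chance, or 6.7 here. None of the 5 concerned 1 of the 10 injury markers. The summed thick ascending limb genes were low in rFGF4 mouse 1 (0.929 of the group's range lay between this mouse and the next; 977 FPKM against 1430 to 1472). The summed lymphocyte genes were high in vehicle mouse 5 (0.843; 1051 FPKM against 4.51 to 11.5). *Itgb6*, an integrin subunit of injured epithelium, was high in rFGF4 mouse 1 (0.924; 10.1 FPKM). The chemokine gene *Cxcl1* was low in rFGF4 mouse 5 (0.870; 0.648 FPKM against 32.0 to 50.6 in the other treated mice). The integrin subunit gene *Itgb5* was high in vehicle mouse 5 (0.841; 50.4 FPKM).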

How the results depend on the processing

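The direction of *Havcr1*, *Krt20*, *Sox9* and *Clu* was the same in all 13 alternatives. *Havcr1* and *Krt20* passed an unadjusted p of 0.05 in 2 of them and *Sox9* in 1. The count of markers at the study's threshold was 0, 3 without rFGF4 mouse 5 (0 to 3 with each mouse left out) and 2 with array weights. The count whose groups did not overlap was 0 to 1 with each mouse left out (1 without rFGF4 mouse 5, beside 11% of all genes). The median log2 fold change of the markers was 0.23 without rFGF4 mouse 1 and 1.33 without rFGF4 mouse 5, the extremes of these fits. Leaving out 1 mouse turned *Vim* to -0.064 (without rFGF4 mouse 1), -0.032 (vehicle mouse 2) and -0.020 (vehicle mouse 4), *Cd44* to -0.12 and *Krt18* to -0.11 (both without rFGF4 mouse 1). The highest values with 1 mouse left out were 0.83 for *Vim*, 1.15 for *Cd44* and 0.68 for *Krt18*. Of all genes, 231 were at the threshold, 165 higher and 66 lower, and 93 were higher and 81 lower after scaling. The count was 348 with a pseudocount of 0.1, 490 with array weights, 54 at a fold change of 2, 700 with no fold limit and 187 to 575 with each mouse left out (575 without rFGF4 mouse 5 and 432 without vehicle mouse 5). The cause of these changes was not tested.

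The mouse numbers 2, 3 and 5 occur in both groups. Deviations from the group means of same-numbered mice correlated at -0.23, -0.16 and -0.39, so that the numbers did not pair the mice, and no mouse correlated best with its own number. With the replicate block over these 6 mice, the median log2 fold change of the markers was -0.17, with 0 markers at the threshold, and *Havcr1* was 0.84, *Krt20* 0.36, *Sox9* 0.21, *Lcn2* -0.21, *Vcam1* -0.14, *Spp1* -0.38, *Vim* -0.36, *Cd44* -0.40 and *Krt18* -0.43. This fit leaves out rFGF4 mouse 1 and vehicle mouse 4. Without counts, neither the depth nor the counting error of low values such as *Sox9* is known.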
